A study of Rattus norvegicus with 13 samples.

Results

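Chemokines are small secreted proteins that steer leukocytes and other cells along concentration gradients. Interleukins of the interleukin-1 family and tumour necrosis factor act on receptors that switch on the transcription factor NF-kB. NF-kB induces its own inhibitor, IkBalpha, which closes a feedback loop, while transforming growth factor beta restrains many inflammatory responses. In injured cortex such genes are known to be induced within hours to days in microglia, astrocytes, vessels and infiltrating cells.

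The genes described here were 10 members of this system. They were the chemokine ligands Ccl3, Ccl4, Cxcl12, Cxcl13 and Cxcl16, the interleukins Il1a and Il18, the tumour necrosis factor receptor Tnfrsf1a, the NF-kB inhibitor Nfkbia and the growth factor Tgfb1. They, and the gene lists set beside them, were chosen with earlier results of these data known. Their counts beside the share of all genes are therefore a description and no test of an independent choice. The 10 genes were found through the gene name that the scanner files give each probe, and had 12 probes. Of the 10 genes, 9 entered the 17253 genes tested. Ccl4 did not, because its probe was not above background on every array of any group.

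Transcripts were measured in frontal cortex of male Sprague-Dawley rats, on 13 one-colour Agilent arrays with 1 sample each. The groups, all sampled 1 month after trauma or sham surgery, were head acceleration rotational trauma (3 samples), the sham group of that model (3 samples), lateral fluid percussion trauma (3 samples) and the sham group of that model (4 samples). Rotational trauma turns the head rapidly without contact, and fluid percussion drives a pressure pulse onto the dura. The samples are numbered only, so p-values measure the spread between these samples, which may in part be technical.

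A level is the log2 processed signal of a probe minus the upper quartile of its array, so that 0 is the upper quartile and probes of different genes cannot be set against each other. A difference is trauma minus the sham group of the same model, from limma, with its moderated standard error (SE) and a Benjamini-Hochberg adjusted p over all genes tested. The threshold was 0.05. A probe was above background on an array where the scanner software marked most of its spots as well above background. Rotational arrays lay on slide 1 and percussion arrays on slide 2, which leaves the models confounded with the slides: the 2 cannot be told apart. On the rotational slide the trauma arrays lay in column 2 and the sham arrays in column 1, and on the percussion slide this was turned round. Between 72.7% and 74.1% of spots were above background in column 1, against 67.0% to 72.5% in column 2. Within a model, column and trauma cannot be told apart. The tissue label held against its markers: all 6 neuron markers and all 4 measured markers of cortical excitatory neurons were above background on every array.

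None of the 9 tested genes passed the threshold in either model. After rotational trauma 0 of 9 were called, where 0.0116% of all genes were, and after percussion trauma 0 of 9, where 0% of all genes were. The smallest adjusted p among them was 0.484 after rotational trauma and 0.203 after percussion trauma. At an unadjusted p under 0.05, after rotational trauma 2 were higher (Il18 and Nfkbia; 2.7% of all genes) and 1 was lower (Il1a; 4.29% of all genes). After percussion trauma 4 were higher (Ccl3, Cxcl13, Cxcl16 and Tnfrsf1a; 8.71% of all genes) and 1 was lower (Nfkbia; 2.86% of all genes). The difference was above 0 for 5 of 9 genes after rotational trauma (38.1% of all genes) and for 7 of 9 after percussion trauma (57% of all genes). The median log2 difference over the 9 genes was 0.08 after rotational trauma and 0.34 after percussion trauma, beside −0.03 and 0.03 over all genes tested.

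**Figure D1:**
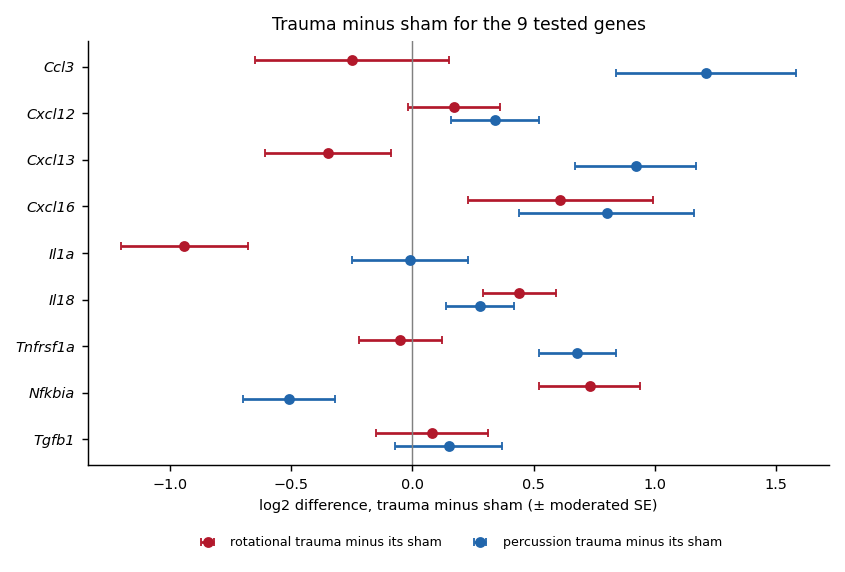
Log2 difference of trauma minus sham (x axis) with its moderated SE for the 9 tested genes (rows), in the rotational model (red) and the percussion model (blue). Nfkbia lies at 0.73 and −0.51, on opposite sides of 0, while Cxcl12, Cxcl16, Il18 and Tgfb1 lie above 0 in both models (Tgfb1 at −0.06 after rotational trauma with another background correction, normexp).

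The differences of Cxcl12, Cxcl16, Il18 and Tgfb1 were above 0 in both models. Under other settings the sign turned for Tgfb1, at −0.06 after rotational trauma with normexp and −0.04 after percussion trauma without trauma 2, and Cxcl12, at −0.09 after rotational trauma without trauma 1 and −0.10 after percussion trauma at its second probe. Those of Ccl3, Cxcl13 and Tnfrsf1a were above 0 after percussion trauma and below 0 after rotational trauma. Nfkbia had the opposite signs, and Il1a was below 0 in both. The difference between models was tested for each gene and passed for 0 of 9, as for 0% of all genes. At an unadjusted p under 0.05 it was below 0 for 4 genes (Ccl3, Cxcl13, Il1a and Tnfrsf1a; 7.7% of all genes) and above 0 for Nfkbia (1 gene; 1.55% of all genes), and it had a positive sign for 2 of 9 (38% of all genes).

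**Figure D2:**
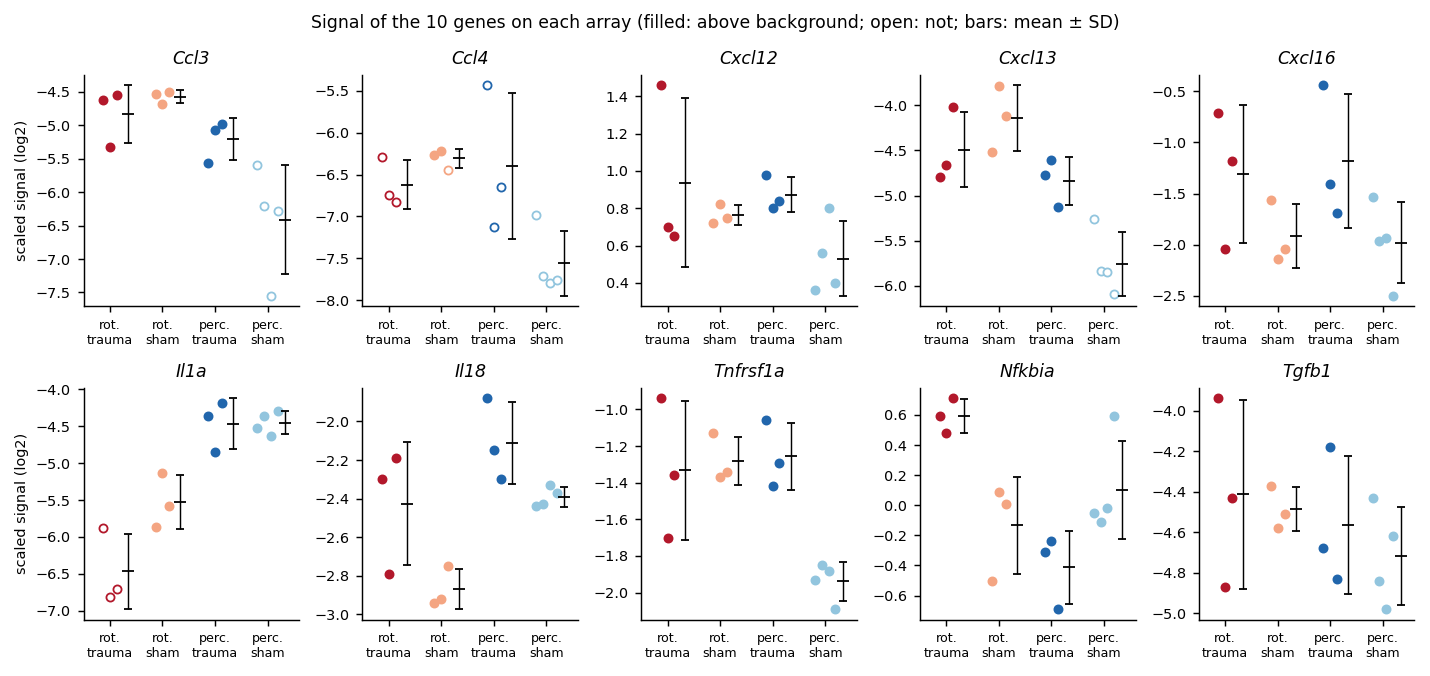
Scaled signal (log2, y axis) of the 10 genes on each of the 13 arrays, by group; filled points are above background, open points are not, and bars give the mean ± SD. Ccl3 and Cxcl13 are not above background on any percussion sham array, nor Il1a on any rotational trauma array, and Ccl4 is above background on 2 rotational sham arrays alone.

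Ccl3 and Ccl4 encode macrophage inflammatory proteins 1-alpha and 1-beta, which microglia and macrophages release early after injury. Both signals were close to background in these cortices. Their probes lie on rat chromosome 10, with 15594 bases between them (rn4, Ccl3 from 71744611 to 71744670 and Ccl4 from 71760265 to 71760324). The 2 probes are shown to compare these neighbouring relatives: 30 bases of the Ccl3 probe and the whole Ccl4 probe, with the longest run that the 2 full probes share (6 bases) in capitals.
Ccl3 probe, bases 30 to 59: GTGATGacaaagtcatgaactgacaaatgt
Ccl4 probe: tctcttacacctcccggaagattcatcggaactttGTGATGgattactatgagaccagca

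The Ccl3 level was −4.62, −5.33 and −4.55 on the rotational trauma arrays, against −4.53, −4.69 and −4.51 in rotational sham. It was −5.56, −5.07 and −4.98 on the percussion trauma arrays, against −5.60, −6.21, −7.55 and −6.28 in percussion sham. The rotational groups overlapped, and every percussion trauma array lay above every percussion sham array, by 0.04 at the closest. No percussion sham array (0 of 4) was above background, so the percussion difference is given as a bound. With this scaling the Ccl3 signal in percussion trauma was at least 1.45-fold higher (log2 difference of the measured means 1.21, SE 0.37, adjusted p = 0.272 by limma). The measured means were −5.20 in percussion trauma and −6.41 in percussion sham. The rotational difference was −0.25 (SE 0.40, adjusted p = 0.972), and the mean of both was 0.48 (SE 0.27, adjusted p = 0.679). Ccl3 was above background on 6 of 6 arrays in column 1 and on 3 of 7 in column 2, and in both models the mean was higher in the group of column 1 (in the rotational model −4.83 in trauma and −4.58 in sham). The percussion difference was 0.51 with another background correction (normexp) and 0.49 with the authors' deposited table. Both correspond to a fold below the bound of 1.45. Without percussion sham 3 the percussion difference was 0.83. The Ccl3 probe is printed 10 times on each array, and the SD over these spots had a median of 0.18 on the log2 scale.

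The Ccl4 level was −6.29, −6.74 and −6.83 after rotational trauma, against −6.26, −6.22 and −6.44 in rotational sham. It was −5.43, −7.12 and −6.65 after percussion trauma, against −6.98, −7.71, −7.79 and −7.76 in percussion sham. The probe was above background on 2 of the 13 arrays, both of rotational sham, so no fold is given.

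Cxcl12 encodes stromal cell-derived factor 1, the ligand of Cxcr4, which vessels, meninges and neurons make at all times and which guides progenitors and leukocytes. It had 2 probes, both above background on all 13 arrays. They lie on the plus strand of chromosome 4, with 5860 bases between them: the upstream one from 153510285 to 153510344 and the downstream one from 153516205 to 153516264 (rn4). The files assign them to 2 different Cxcl12 transcripts. The last 30 bases of each are shown because the probes gave different values; the capitals mark AATAAA, the polyadenylation signal, which 1 of the 12 probes and 8.4% of all probes hold on this strand.
Cxcl12 upstream probe, bases 31 to 60: tatttacctgaAATAAAatctactagttgt
Cxcl12 downstream probe, bases 31 to 60: ctgtctcccagataatgtgaaaatggtcca

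At the upstream probe, Cxcl12 was 1.46, 0.70 and 0.65 after rotational trauma, against 0.72, 0.82 and 0.75 in rotational sham. After percussion trauma it was 0.98, 0.80 and 0.84, against 0.36, 0.56, 0.80 and 0.40 in percussion sham. In the rotational model trauma array 1 lay above all sham arrays and the other 2 lay below them. The rotational difference of 0.17 (SE 0.19, adjusted p = 0.938) became −0.09 without that array. In the percussion model the lowest trauma array and the highest sham array, sham 3, had the same value to 2 decimals, and the difference was 0.34 (SE 0.18, adjusted p = 0.48), a 1.27-fold higher signal. At the downstream probe the differences were 0.03 (SE 0.11, adjusted p = 0.989) after rotational trauma and −0.10 (SE 0.11, adjusted p = 0.758) after percussion trauma, adjusted over 20026 probes. The percussion groups overlapped there, at 0.37, 0.18 and 0.30 in trauma and 0.18, 0.43, 0.51 and 0.40 in sham. With the mean of both probes the percussion difference was 0.12. Whether the 2 probes differ in their response to trauma was not tested.

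**Figure D3:**
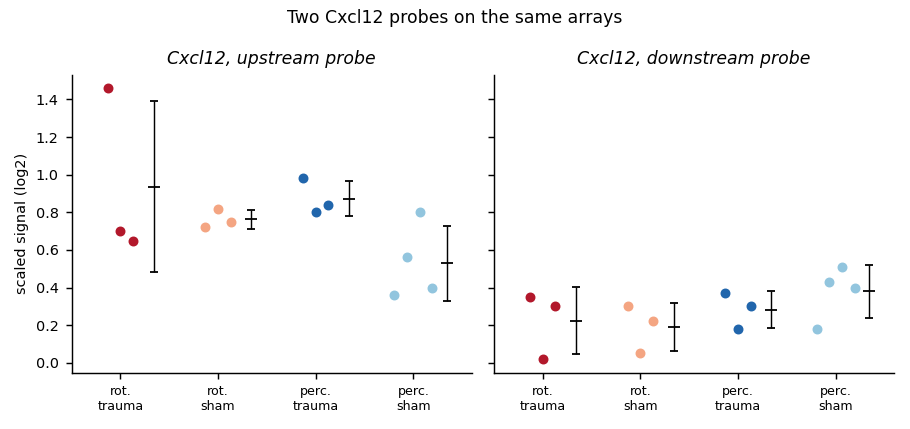
Scaled signal (log2, y axis) of the 2 Cxcl12 probes on each array, by group, with bars for the mean ± SD; levels of different probes cannot be compared, only the order of groups within a probe. Percussion trauma averages 0.87 and percussion sham 0.53 at the upstream probe, against 0.28 in trauma and 0.38 in sham at the downstream probe.

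Cxcl13 encodes the B cell attractant that acts on Cxcr5 and organises lymphoid follicles. Its probe lies on chromosome 14 from 15127379 to 15127438 (rn4). The level was −4.80, −4.66 and −4.02 after rotational trauma, against −4.52, −3.79 and −4.12 in rotational sham. It was −4.77, −4.61 and −5.13 after percussion trauma, against −5.26, −5.83, −5.85 and −6.09 in percussion sham. The percussion groups did not overlap, and no percussion sham array (0 of 4) was above background. With this scaling the Cxcl13 signal in percussion trauma was at least 1.76-fold higher (log2 difference of the measured means 0.92, SE 0.25, adjusted p = 0.225 by limma). The means were −4.84 in trauma and −5.76 in sham. After rotational trauma it differed by −0.35 (SE 0.26, adjusted p = 0.882), the mean of both was 0.29 (SE 0.18, adjusted p = 0.72), and the difference between models was −1.27 (SE 0.36, adjusted p = 0.32). As for Ccl3, the group in column 1 had the higher mean in both models (in the rotational model −4.49 in trauma and −4.14 in sham), and 6 of 6 arrays of column 1 were above background, against 3 of 7 of column 2. The part of the slide column in either gene was not tested. With normexp the percussion difference was 0.38, which corresponds to a fold below the bound of 1.76.

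Cxcl16 encodes a membrane-bound chemokine and scavenger receptor that is shed to attract Cxcr6-bearing T cells. Its probe lies on chromosome 10 from 57296159 to 57296218 (rn4) and was above background on all 13 arrays. The level was −0.71, −2.04 and −1.18 after rotational trauma, against −1.56, −2.14 and −2.04 in rotational sham. After percussion trauma it was −0.44, −1.41 and −1.69, against −1.53, −1.96, −1.93 and −2.50 in percussion sham. Both pairs of groups overlapped, with 2 of 3 rotational trauma arrays and 2 of 3 percussion trauma arrays above all of their sham arrays. The signal was 1.52-fold higher after rotational trauma (log2 difference 0.61, SE 0.38, adjusted p = 0.838) and 1.74-fold higher after percussion trauma (0.80, SE 0.36, adjusted p = 0.425). The mean of both differences was 0.70 (SE 0.26, unadjusted p = 0.0211 and adjusted p = 0.446 by limma). These values rested on single arrays: the rotational difference was 0.30 without trauma 1 and 0.97 without trauma 2, the percussion difference was 0.43 without trauma 1, and the rotational one was 0.24 with the slide row as a block.

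Il18 encodes an interleukin-1 family cytokine that caspase-1 activates in inflammasomes. Its probe lies on chromosome 8 from 53943005 to 53943064 (rn4) and was above background on all arrays. The level was −2.30, −2.79 and −2.19 after rotational trauma, against −2.94, −2.92 and −2.75 in rotational sham. After percussion trauma it was −1.88, −2.15 and −2.30, against −2.44, −2.43, −2.33 and −2.37 in percussion sham. In the rotational model 2 of 3 trauma arrays lay above sham, and in the percussion model 3 of 3 did, the closest by 0.03. The signal was 1.36-fold higher after rotational trauma (log2 difference 0.44, SE 0.15, adjusted p = 0.578) and 1.22-fold higher after percussion trauma (0.28, SE 0.14, adjusted p = 0.461). The mean of both differences, 0.36 (SE 0.10), had the smallest unadjusted p of the 9 genes for that quantity, 0.00397, and an adjusted p of 0.284. At an unadjusted p under 0.05, 3 of the 9 genes had a mean of both above 0 (Cxcl16, Il18 and Tnfrsf1a; 5.37% of all genes) and 1 below 0 (Il1a; 3.46%), and the mean of both was above 0 for 8 of 9 (47.2% of all genes). Without percussion trauma 1 the percussion difference of Il18 was 0.17.

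Il1a encodes interleukin-1 alpha, an alarmin that dying cells release and that acts on the interleukin-1 receptor. Its 2 probes lie on chromosome 3, with 1018 bases between them (rn4, from 116913748 to 116913807 and from 116914826 to 116914885). The second was above background on no array (0 of 13) and was not used. At the first, the level was −5.88, −6.81 and −6.71 after rotational trauma, against −5.86, −5.14 and −5.58 in rotational sham. It was −4.36, −4.85 and −4.19 after percussion trauma, against −4.52, −4.36, −4.64 and −4.30 in percussion sham. No rotational trauma array (0 of 3) was above background, and all 10 other arrays were. The highest rotational trauma array lay 0.02 below the lowest rotational sham array. With this scaling Il1a was at least 1.32-fold lower after rotational trauma (log2 difference of the measured means −0.94, SE 0.26, adjusted p = 0.484 by limma). The means were −6.47 in trauma and −5.52 in sham. The percussion groups overlapped (difference −0.01, SE 0.24, adjusted p = 0.991). The rotational difference was −0.45 with normexp and −0.33 in the authors' deposited table, the latter corresponding to a fold below the bound of 1.32. Non-overlapping groups with trauma lower were seen for 11.2% of all genes in the rotational model.

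Tnfrsf1a encodes tumour necrosis factor receptor 1, which is present on most cells and signals to NF-kB or cell death. Its probe lies on chromosome 4 from 162185192 to 162185251 (rn4). The level was −0.94, −1.70 and −1.36 after rotational trauma, against −1.13, −1.37 and −1.34 in rotational sham. After percussion trauma it was −1.06, −1.42 and −1.29, against −1.93, −1.85, −1.88 and −2.09 in percussion sham. The rotational groups overlapped. In the percussion model the groups were separate, with a gap of 0.43 between the lowest trauma array and the highest sham array, the widest of the 9 genes. The signal was 1.60-fold higher after percussion trauma (log2 difference 0.68, SE 0.16, unadjusted p = 0.00108, adjusted p = 0.203 by limma). After rotational trauma the difference was −0.05 (SE 0.17, adjusted p = 0.991), with a sign that turned without sham 1 or trauma 2. The difference between models was −0.73 (SE 0.23, adjusted p = 0.362). The means were −1.33 in rotational trauma and −1.28 in rotational sham, and −1.26 in percussion trauma and −1.94 in percussion sham. In both models the group in slide column 1 had the higher mean, and the part of the column was not tested. Groups that did not overlap with trauma higher were found after percussion trauma for 5 of the 9 genes (Ccl3, Cxcl12, Cxcl13, Il18 and Tnfrsf1a) and 6.96% of all genes, and after rotational trauma for 1 of 9 (Nfkbia) and 4.52% of all genes. With trauma lower they were found after percussion trauma for 1 of 9 (Nfkbia) and 3.05% of all genes. These counts include Ccl3 and Cxcl13, which passed the filter only through groups in which they were brighter than in percussion sham.

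The signal of meningeal fibroblast markers was higher on the trauma arrays too. These markers are matrix and fibroblast genes such as Ogn, Col1a1, Dcn and Igf2. All 7 were higher after both traumas, with a median log2 difference of 1.23 after rotational and 1.36 after percussion trauma, and 0 of 7 passed the threshold (at an unadjusted p under 0.05, 4 after rotational and 7 after percussion trauma, against 2.7% and 8.71% of all genes). Their summed signal (log2) ranged from 3.61 to 4.60 in rotational trauma, against 2.37 to 3.25 in rotational sham, and from 3.98 to 5.02 in percussion trauma, against 2.30 to 3.51 in percussion sham. Neither pair of groups overlapped. Of the 7 markers, Lum was above background on no percussion sham array and passed the filter only through percussion trauma. On both slides the trauma array with the highest sum, number 1, also had the highest Cxcl16 and, at the upstream probe, the highest Cxcl12 of its slide. At the downstream Cxcl12 probe percussion trauma 1, at 0.37, lay below percussion sham 2, 3 and 4. On the rotational slide Il18 was highest on trauma 3 (−2.19, against −2.30 on trauma 1). Trauma 1 of both slides also had the highest sums of border-associated macrophage, mural and endothelial markers. The match was therefore not particular to the meningeal markers. Of 6 markers of border-associated macrophages, 4 were measured, with a median difference of 0.93 after rotational and 1.14 after percussion trauma. After rotational trauma 4 were higher (38.1% of all genes). After percussion trauma 3 were higher (57% of all genes) and Lyve1 was lower (means −4.62 in trauma and −4.56 in sham). Cd163 and F13a1 were above background on no percussion sham array. Mrc1 and Ms4a7 were not above background in all arrays of any group. Their summed signal ranged from −2.11 to −1.20 in rotational trauma, against −2.90 to −2.09 in rotational sham, and from −2.43 to −1.60 in percussion trauma, against −3.30 to −2.75 in percussion sham. The 9 microglia markers had median differences of 0.02 and 0.06, with summed signals between 4.70 and 5.16 on all arrays. All 5 mural cell markers were higher in both models (medians 0.23 and 0.53), with sums of 1.20 to 1.74 in rotational trauma, against 0.67 to 0.99 in rotational sham, and of 1.60 to 2.15 in percussion trauma, against 1.17 to 1.47 in percussion sham. The 2 of 5 choroid plexus markers that were measured had median differences of 1.04 and 1.29, with sums that overlapped in the rotational model (−2.31 to −0.53 in trauma, −4.11 to −0.63 in sham) and in the percussion model (−2.17 to −0.91 in trauma, −3.44 to −1.94 in sham). In the percussion model the sums of the 5 endothelial markers measured (2.41 to 2.63 in trauma, 2.21 to 2.39 in sham) and of the 3 of 6 T cell markers measured (−3.30 to −3.15 in trauma, −3.73 to −3.37 in sham) did not overlap, while in the rotational model both did. Of these T cell markers, Cd3g and Cd4 were above background on no percussion sham array. Cd3d, above background on every array, overlapped in the percussion model (−3.89 to −3.68 in trauma, −4.11 to −3.77 in sham). The part of these cell types in the results was not tested. In such bulk samples a change in the number of cells of a type and a change in RNA per cell cannot be told apart.

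**Figure D4:**
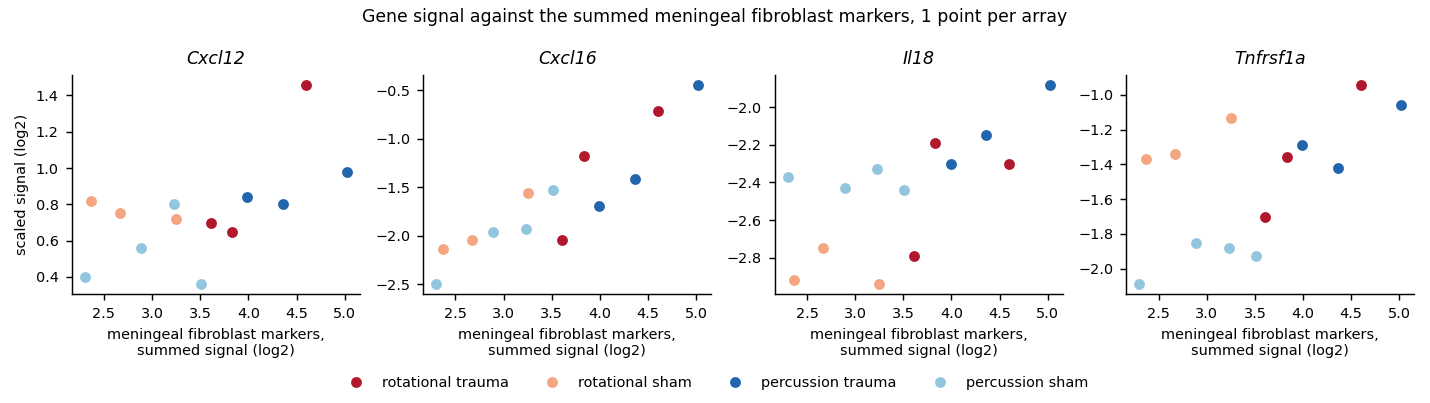
Scaled signal (log2, y axis) of Cxcl12, Cxcl16, Il18 and Tnfrsf1a against the summed signal of 7 meningeal fibroblast markers (log2, x axis), 1 point per array, coloured by group. The 6 trauma arrays have sums from 3.61 to 5.02, above the 7 sham arrays at 2.30 to 3.51, and the highest Cxcl16 values lie at the highest sums.

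The genes whose signals ran most closely with each of these, over the 13 arrays after each slide's mean was subtracted, are given as a description among 11169 genes. The arrays share their groups and slide columns. For Cxcl16 they were Nfatc4 (r = 0.971), Wnt5b (0.971) and Cpz (0.965). For Cxcl12 they included Rarres1 (0.939) and Myd88 (0.918), the adaptor of interleukin-1 receptors. For Il18 they were Vstm4 (0.926), Tgfbi (0.919), a matrix protein induced by transforming growth factor beta, and Fibin (0.910). For Tnfrsf1a they were Lpar6 (0.923), Cfhr4 (0.920) and Slc38a5 (0.918).

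Nfkbia encodes IkBalpha, which holds NF-kB in the cytoplasm and is resynthesised when NF-kB is active. The probe lies on chromosome 6 from 75730438 to 75730497 on the minus strand (rn4). Its sequence is shown with the 250 bases before a start site of the gene, because NF-kB is known to act on this promoter. The promoter window is chr6:78597073-78597322 on the minus strand of GRCr8, from RefSeq, and the capitals mark a match to the kappaB decamer, whose first base lies 31 bases before the start used in that table. RefSeq's span of the gene reaches further upstream than this start, so most of the window lies inside that span.
Nfkbia probe: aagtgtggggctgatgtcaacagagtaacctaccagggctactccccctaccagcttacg
Nfkbia upstream window: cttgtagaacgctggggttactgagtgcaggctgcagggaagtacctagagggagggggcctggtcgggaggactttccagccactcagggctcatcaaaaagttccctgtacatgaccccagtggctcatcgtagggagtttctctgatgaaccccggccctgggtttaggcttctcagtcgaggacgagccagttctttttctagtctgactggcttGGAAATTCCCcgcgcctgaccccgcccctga

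On either strand, the kappaB decamer was found in 1 of the 8 upstream windows of these genes in the RefSeq table, that of Nfkbia, and in 6.3% of all 33469 windows of 250 bases. The motif TATAAA was found in 2 of the 8, Cxcl13 and Il1a, and in 12.9% of all windows. None of the 8 windows held both motifs. A match is a string of letters in this window and no measure of binding.

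The Nfkbia level was 0.59, 0.48 and 0.71 after rotational trauma, against −0.50, 0.09 and 0.01 in rotational sham. After percussion trauma it was −0.31, −0.24 and −0.69, against −0.05, −0.11, −0.02 and 0.59 in percussion sham. In the rotational model every trauma array lay above every sham array, and in the percussion model every trauma array lay below every sham array. The signal was 1.66-fold higher after rotational trauma (log2 difference 0.73, SE 0.21, unadjusted p = 0.00463, adjusted p = 0.49). After percussion trauma the log2 difference was −0.51 (SE 0.19, unadjusted p = 0.0218, adjusted p = 0.35), a 1.43-fold lower signal, and −0.35 without percussion sham 4. The difference between the models was 1.24 (SE 0.28, unadjusted p = 0.00103, adjusted p = 0.214), the smallest p of the 9 genes for this quantity. The brighter groups, rotational trauma and percussion sham, both lay in column 2 of their slide, and the part of the column in this difference was not tested. The mean of both differences was 0.11 (SE 0.14, adjusted p = 0.903), and 0.02 to 0.19 with 1 array left out. The mean over arrays was 0.60 in rotational trauma, −0.13 in rotational sham, −0.41 in percussion trauma and 0.10 in percussion sham. Closest to Nfkbia over the arrays were Ddit4 (r = 0.864), Ifit3 (0.859) and Slc2a1 (0.795).

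Genes that glucocorticoids induce were examined beside Nfkbia. Of the 12 measured, 10 were higher after rotational trauma (38.1% of all genes), with a median log2 difference of 0.48, and 7 of them had an unadjusted p under 0.05 (2.7% of all genes). After percussion trauma 4 were higher (57% of all genes) and 8 lower, with a median of −0.15. At an unadjusted p under 0.05, 1 was higher there (8.71% of all genes) and 3 were lower (2.86%). In either model 0 of 12 passed the threshold. The difference between models was above 0 for 11 of 12 (38% of all genes), and 0 passed (7 above 0 at an unadjusted p under 0.05, as 1.55% of all genes). Cebpd, a transcription factor, differed by 0.72 after rotational trauma (adjusted p = 0.0848). Ddit4, an inhibitor of mTOR signalling, differed by 0.86 (adjusted p = 0.246) after rotational and −0.43 (adjusted p = 0.352) after percussion trauma. Dusp1, a phosphatase of MAP kinases, differed by 0.61 after rotational and −0.66 (adjusted p = 0.225) after percussion trauma. Sgk1 and Errfi1 differed by 0.81 and 0.53 after rotational trauma (adjusted p = 0.33 for each), and Klf9 by −0.30 after percussion trauma (adjusted p = 0.225). Fkbp5 and Tsc22d3 differed by 0.04 and 0.43 after rotational trauma, and by −0.12 and −0.20 after percussion trauma. Zbtb16 was lower in both models, at −0.17 and −0.21. Per1 differed by −0.06 after rotational and 0.19 after percussion trauma, and was above background on no rotational trauma or percussion sham array. Sult1a1 was above 0 in both models, at 0.92 after rotational and 0.75 after percussion trauma, and so were Cebpd, at 0.18 after percussion trauma (adjusted p = 0.507), and Mt2A, at 0.31 and 0.07. The slide columns are those given for Nfkbia, and their part was not tested here either.

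**Figure D5:**
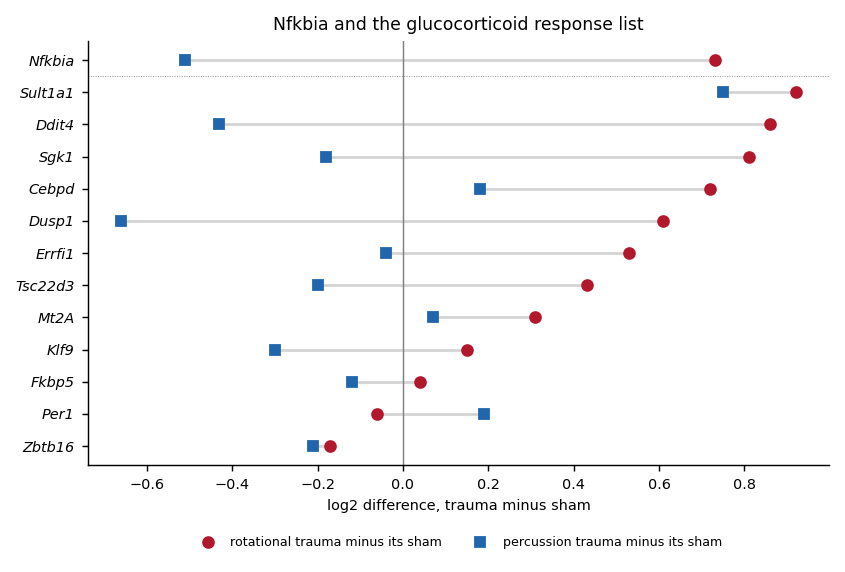
Log2 difference of trauma minus sham (x axis) for Nfkbia (top row) and 12 genes induced by glucocorticoids, in the rotational model (red circles) and the percussion model (blue squares). Nfkbia, Ddit4 and Dusp1 lie on opposite sides of 0 in the 2 models, while Sult1a1 lies at 0.92 and 0.75.

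Tgfb1 encodes transforming growth factor beta 1, which microglia and astrocytes raise after injury. Its probe lies on chromosome 1 from 80910123 to 80910182 (rn4), was printed 10 times and was above background on all arrays. The level was −3.94, −4.87 and −4.43 after rotational trauma, against −4.37, −4.58 and −4.51 in rotational sham. After percussion trauma it was −4.68, −4.18 and −4.83, against −4.43, −4.84, −4.98 and −4.62 in percussion sham. Both pairs of groups overlapped. The difference was 0.08 (SE 0.23, adjusted p = 0.991) after rotational trauma and 0.15 (SE 0.22, adjusted p = 0.831) after percussion trauma, both smaller than their SE. Closest to Tgfb1 over the arrays were Lpcat3 (r = 0.857), Mdga1 (0.854) and Jund (0.838).

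The other genes of the cytokine, chemokine, NF-kB and TGF-beta pathways were taken from 8 lists with 165 genes, of which 99 were tested. In either model 0 of 99 passed the threshold. At an unadjusted p under 0.05, 4 were higher (2.7% of all genes) and 4 lower (4.29%) after rotational trauma, and 18 were higher (8.71%) and 3 lower (2.86%) after percussion trauma. The filter limits these counts. Ccl2, Ccl22, Cxcl17, Xcl1, Il15 and Lif, among others, were above background on no percussion sham array. They passed only through other groups, Cxcl17 and Xcl1 through percussion trauma alone. The part of the slide column in these counts was not tested. Of the 29 further chemokine ligands 16 were measured, with median log2 differences of −0.05 after rotational and 0.07 after percussion trauma. Of 22 chemokine receptors 7 were measured (−0.11 and −0.05). Of 19 genes of the interleukin-1 family and its signalling 11 were measured (0.02 and 0.16), and Il1b was among those too dim to test. Of 15 genes of the tumour necrosis factor pathway 10 were measured (0.06 and 0.08), of 21 NF-kB subunits, kinases and inhibitors 15 (−0.03 and 0.14), of 15 NF-kB target genes 11 (0.08 and 0.07), of 25 TGF-beta pathway genes 21 (0.02 and 0.16), and of 19 other cytokines 8 (0.10 and 0.19).

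Outside the glucocorticoid list, the listed genes of smallest p after percussion trauma were these. Ccl19, a chemokine of lymphoid stroma acting on Ccr7, was higher by 1.12 (SE 0.29, adjusted p = 0.219), at a mean of 0.20 in percussion trauma against −0.92 in percussion sham, with groups that did not overlap. Il15, a cytokine of natural killer and memory T cells, was not above background on any percussion sham array (0 of 4) and was at least 1.63-fold higher (adjusted p = 0.238). It was above background on all arrays of slide column 1 and, in column 2, on 1 rotational trauma array. Otud7b, a deubiquitinase that restrains NF-kB, was higher by 1.12 (SE 0.31, adjusted p = 0.239), and Irak2, a kinase of interleukin-1 receptors, was lower, at −0.24 (adjusted p = 0.28). The percussion groups of Il15, Otud7b and Irak2 overlapped. The 4 higher genes with an unadjusted p under 0.05 after rotational trauma, named after their values were seen, did not overlap between groups. They were picked by that p. Of all 99 listed genes, 7 did not overlap with rotational trauma higher (4.52% of all genes) and 7 with it lower (11.2% of all genes). Tgfbi differed by 0.80 (adjusted p = 0.415; means −2.36 in trauma and −3.16 in sham), Ccl19 by 1.08 (adjusted p = 0.49), Ninj1, an adhesion protein, by 0.21 (adjusted p = 0.581) and Il34, a ligand of the microglial growth factor receptor Csf1r, by 0.19 (adjusted p = 0.591). The lower genes of smallest p in that model were Ccl22, which was above background on no trauma array (0 of 3) and at least 1.12-fold lower (adjusted p = 0.415), Lif with a difference of −0.24 (adjusted p = 0.576), Ccr10 with −0.27 (adjusted p = 0.61) and Cyld, another deubiquitinase of the NF-kB pathway, with −0.24 (adjusted p = 0.634). Ccl22 and Lif passed the filter only through rotational sham and percussion trauma, the groups of column 1. In column 2 Ccl22 was above background on no array and Lif on 1. Both had higher means in percussion trauma (−5.73 and −5.61) than in percussion sham (−5.96 and −5.87). The part of the column was not tested.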

How the data were processed

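Per the file headers, spots were read by Agilent Feature Extraction, version 10.5.1.1. The files that the authors deposited hold 1 processed intensity for a spot. The authors also deposited normalised log2 values, which share a median of 8.15 per column and served as an alternative. Each array's 58717 non-control spots were used, outlier spots were set missing, and no spot was saturated (0). The processed intensity was scaled as log2 minus the array's 75th percentile. A probe was kept (20026 in all) if some group had it above background on all its arrays, and the probe of highest mean stood for a gene. A group-mean model over 13 arrays was fitted with limma 3.58.1 (R 4.3.3) and tested on simulated data; figures used Python 3.11.15. A bound sets the bright group's mean against the higher of the dim probe's signal and the lowest signal above background of any probe on that array. It is a minimum for this scaling only. For Ccl3, Cxcl13 and Il1a other processing gave a fold below it. The number of arrays limits the precision. The members and the gene lists were chosen with earlier results of these data known. Pathway genes are named by smallest p, up to 4 per direction and model, and the 3 closest genes by Pearson r; some items are not reported here. Names follow a GRCr8 gene table, and coordinates of probes are rn4.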

Additional observations from a re-analysis of the deposited data

Results flagged for a closer look

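Nfkbia differed in opposite directions in the 2 models, with no overlap between trauma and sham in either: the rotational difference minus the percussion difference was 1.24 on the log2 scale (adjusted p = 0.214 by limma). Among the 12 probes, 3 had a percussion sham array far from the other 3. The Nfkbia level was 0.59 on percussion sham 4, against −0.11 to −0.02 on the others (gap over range 0.871). The Ccl4 level was −6.98 on percussion sham 1, against −7.79 to −7.71 (0.901), and the second Il1a probe was at −6.71 on percussion sham 1, against −7.97 to −7.82 (0.881). Neither of these last probes was above background on any percussion sham array. Chance flags about 1 in 20 such groups.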

How the results depend on the processing

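Members called stayed at 0 in all 4 comparisons under every alternative but one. Without the filter on dim probes (26240 genes), 2 were called after percussion trauma (Tnfrsf1a, adjusted p = 0.0229, and Cxcl13, 0.0412) and 2 in the difference between models (Nfkbia, 0.0147, and Cxcl13, 0.0433), while 334, 2899 and 3770 genes were called after rotational trauma, after percussion trauma and in the difference. Of the 36 member differences, 27 kept their sign throughout. Genes called after rotational trauma (2) became 0 with quantile normalisation, 4 with normexp, 1 with probes above background on all arrays, 6 with the deposited table, 6 with that model alone, 0 with the replicate block, 0 with the slide row as a block and 0 to 12 with 1 array left out. After percussion trauma (0) they became 1 with the deposited table, 8 with the row block and 0 to 92 with 1 array left out (92 without percussion trauma 3). The mean of both (0) became 28 with the replicate block, 5 with the row block and 0 to 19 with 1 array left out, and the difference (0) became 0 to 8. Whether the replicate numbers pair the arrays could not be told, and the main model did not use them. Same-numbered trauma and sham arrays correlated at −0.023 to 0.283, and 3 of 6 trauma arrays correlated best with their own number. Signs turned for Tgfb1 (rotational −0.06 with normexp and −0.03 with the row block; difference between models 0.01 with quantile normalisation), Il18 (difference −0.04 with normexp) and Il1a (percussion 0 with normexp and 0.04 with the replicate block). With 1 array left out, the values ranged from −0.25 to 0.13 for Tnfrsf1a, −0.09 to 0.32 for Cxcl12 and −0.16 to 0.30 for Tgfb1 after rotational trauma, −0.15 to 0.18 for Il1a and −0.04 to 0.28 for Tgfb1 after percussion trauma, −0.01 to 0.23 for Tgfb1 in the mean, and −0.49 to 0.18 for Cxcl16 and −0.32 to 0.15 for Tgfb1 in the difference. Beyond fewer or more genes and arrays, the cause was not tested. Signal near background limits Ccl3, Ccl4, Cxcl13 and Il1a.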
